A study of Mus musculus with 48 samples.

Results

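The tricarboxylic acid cycle enzymes described here are 9 genes chosen by symbol: Cs, Idh3a, Idh3b, Idh3g, Ogdh, Suclg1, Sucla2, Fh1 and Mdh2. All 9 were found among the 56748 genes with an FPKM value (fragments per kilobase of gene, scaled to the mapped fragments of the library), and all 9 passed the filter on low counts that left 15637 genes for testing. Their transcripts were measured by RNA-seq in tibialis anterior, a fast muscle of the lower hindlimb, in 48 libraries from male mice aged 39 to 55 weeks. The question the design addresses is whether a pancreatic tumor changes muscle transcripts differently by time of day, and whether skeletal muscle FoxP1, a forkhead transcription factor, is needed for it.

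WT mice carried no muscle Cre; the sample labels describe them as C57BL/6J, whereas the series description gives FoxP1fl/fl without Cre, so their Foxp1 alleles cannot be stated with certainty. FoxP1SkmKO mice were FoxP1fl/fl animals with ACTA1-Cre, in which the skeletal actin promoter drives recombination in muscle fibres and leaves Foxp1 intact in the other cells of the tissue. KPC mice received murine KPC pancreatic cancer cells (FC1245) in the pancreas, and control mice received sterile saline there, so both carried the injection. All mice were kept in constant darkness, and muscles were taken at circadian time (CT, hours in darkness) 18, 22, 26, 30, 34 and 38. Each of the 24 groups held 2 mice, which gave 12 libraries for each genotype and condition.

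The cycle runs in the mitochondrial matrix and oxidises the acetyl group of acetyl-CoA to carbon dioxide, passing electrons to NAD and to the respiratory chain. In muscle it draws on pyruvate from glycolysis and on acetyl-CoA from fatty acids, and its capacity follows the mitochondrial content of the fibre. Citrate synthase activity is widely used as an index of that content. Allosteric effectors and substrate supply also set the flux, and neither was measured here.

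The members are given in the order of the reactions, with positions on mm39 as in the deposited gene tables. Cs encodes citrate synthase, which joins acetyl-CoA to oxaloacetate (chr10:128173603-128198348, plus strand). Idh3a encodes the catalytic subunit of the NAD-dependent isocitrate dehydrogenase (chr9:54493618-54511945, plus strand). Its regulatory subunits are encoded by Idh3b (chr2:130121229-130126467, minus strand) and Idh3g (chrX:72822569-72830503, minus strand). Ogdh encodes the dehydrogenase subunit of the oxoglutarate dehydrogenase complex (chr11:6241633-6306642, plus strand). Suclg1 encodes the alpha subunit that ATP-forming and GTP-forming succinyl-CoA ligase share (chr6:73225365-73253894, plus strand). Sucla2 encodes the beta subunit of the ATP-forming enzyme, the form that prevails in muscle (chr14:73762759-73833582, plus strand). Fh1 encodes fumarase (chr1:175427940-175453201, minus strand), and Mdh2 encodes the mitochondrial malate dehydrogenase that regenerates oxaloacetate (chr5:135807334-135819252, plus strand). Aconitase and the succinate dehydrogenase subunits, which complete the cycle, belong to a comparison list of 13 further enzymes given with the results. That list also holds cytosolic forms outside the matrix, such as Idh1 and Mdh1.

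Promoter sequence is shown for the pair of members whose levels moved together most closely, Idh3b and Idh3g. It is also shown for Mdh2 and Sucla2, the members called in a 24 h fit described below. Each is the RefSeq window from 250 bases before to 50 bases after the annotated start on GRCm38.p6, an earlier build than that of the files, written 5′ to 3′ on the strand of the gene. Capitals mark an ETS motif (CCGGAAG, read as its reverse complement CTTCCGG in Idh3b) or a YY1 motif (AAGATGGCG). The windows are Idh3b chr2:130284402-130284701 (minus strand), Idh3g chrX:73786848-73787147 (minus strand), Mdh2 chr5:135778399-135778698 (plus strand) and Sucla2 chr14:73552536-73552835 (plus strand).
Idh3b: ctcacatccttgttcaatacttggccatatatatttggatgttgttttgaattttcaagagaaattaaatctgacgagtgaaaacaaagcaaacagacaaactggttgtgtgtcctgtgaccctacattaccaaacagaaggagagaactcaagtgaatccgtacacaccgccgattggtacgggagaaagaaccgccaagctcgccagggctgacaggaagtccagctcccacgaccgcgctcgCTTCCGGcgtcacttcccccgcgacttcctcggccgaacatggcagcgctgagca
Idh3g: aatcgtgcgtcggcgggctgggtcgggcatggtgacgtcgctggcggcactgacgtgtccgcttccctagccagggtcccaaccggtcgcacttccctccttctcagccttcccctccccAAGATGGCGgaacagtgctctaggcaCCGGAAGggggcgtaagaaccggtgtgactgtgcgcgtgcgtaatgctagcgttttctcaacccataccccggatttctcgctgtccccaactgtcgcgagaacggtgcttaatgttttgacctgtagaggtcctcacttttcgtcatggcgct
Mdh2: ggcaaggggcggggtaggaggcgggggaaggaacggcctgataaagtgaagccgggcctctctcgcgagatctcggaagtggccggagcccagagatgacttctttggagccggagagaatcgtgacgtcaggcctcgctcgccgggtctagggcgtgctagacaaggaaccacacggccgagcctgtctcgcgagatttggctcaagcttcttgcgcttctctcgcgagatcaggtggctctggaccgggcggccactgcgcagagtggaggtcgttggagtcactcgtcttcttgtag
Sucla2: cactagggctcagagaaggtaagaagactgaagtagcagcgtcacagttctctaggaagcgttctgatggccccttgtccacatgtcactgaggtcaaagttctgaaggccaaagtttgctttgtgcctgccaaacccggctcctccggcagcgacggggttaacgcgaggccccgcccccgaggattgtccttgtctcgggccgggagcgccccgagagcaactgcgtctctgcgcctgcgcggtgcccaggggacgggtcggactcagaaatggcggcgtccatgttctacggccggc

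Windows were present for 8 of the 9 members. The ETS letters stood in the windows of Idh3b and Idh3g, 2 of 8 members, against 9.93% of the 27025 genes with a window. The YY1 letters stood only in that of Idh3g among the 8 members (1.64% of genes). Ogdh, which has 6 windows for alternative starts, held the NRF1 letters GCGCATGCG (1.95% of genes), the estrogen-related receptor core AAGGTCA (5.38%) and the E-box CACGTG (8.09%), the element bound by the circadian activators CLOCK and BMAL1. The longer estrogen-related receptor element TCAAGGTCA (0.466% of genes) and the forkhead letters TGTTTAC (4.05%) were found in no window of the 8 members. The windows of Mdh2 and Sucla2 held none of the 7 motifs searched on both strands. By construction every TCAAGGTCA holds an AAGGTCA; the other motifs do not contain each other.

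The libraries held 14480867 to 20787784 counted fragments, with a median of 16602092. Counts of the members were high, from 3322 for Suclg1 in its lowest library to 30364 for Ogdh in its highest. Foxp1 itself was low: its level was 0.63 ± 0.14 FPKM in WT control (SD, n = 12) and 0.578 ± 0.068 in FoxP1SkmKO control mice (SD, n = 12), with overlapping ranges. The fitted genotype difference of Foxp1 was -0.11 (log2) in control and -0.20 in KPC mice, neither past the threshold, and the counts cover the whole gene, so the deleted exons were not resolved. Fast-fibre markers summed to 41233 to 52768 FPKM per library and slow-fibre markers to 35.9 to 81.5 FPKM, the profile of a fast muscle. In a bulk sample, fewer cells of a type and less RNA per cell cannot be told apart.

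All members were strongly expressed, and their levels stayed in a narrow band. Mdh2 was the highest, at 261 ± 21.9 FPKM over the 48 libraries (SD), followed by Ogdh at 239 ± 13.96 FPKM. Cs stood at 164 ± 6.98 FPKM, the smallest relative spread of the 9. Idh3b had 143 ± 11.2 FPKM and Idh3a 139 ± 9.71 FPKM. Idh3g was at 106 ± 7.51 FPKM and Sucla2 at 102 ± 7.62 FPKM. Fh1 had 77.7 ± 4.91 FPKM, and Suclg1 was the lowest at 56.7 ± 3.88 FPKM. The highest library exceeded the lowest by 1.25 times for Cs and by up to 1.43 times for Idh3b and Suclg1.

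**Figure D1:**
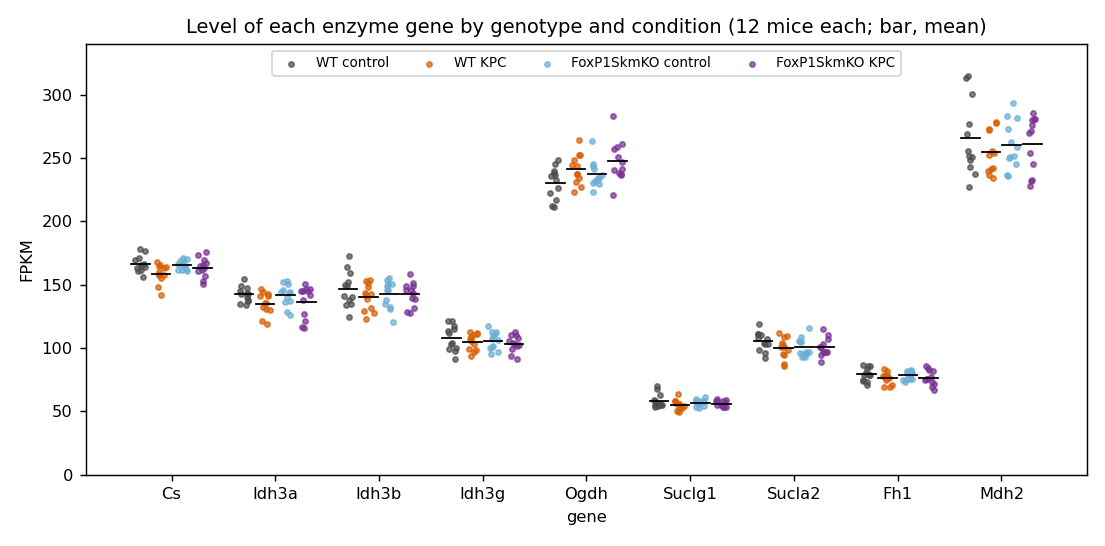
Level of each member in FPKM by genotype and condition; each point is 1 library (12 per group) and the black bar is the group mean. Mdh2 and Ogdh lie highest and Suclg1 lowest in all 4 groups, and for every member the 4 groups overlap.

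The order of levels separated into steps. Ogdh exceeded Cs in 48 of 48 libraries, with no overlap between their ranges. Idh3a exceeded Idh3g, Sucla2 exceeded Fh1 and Fh1 exceeded Suclg1 in 48 of 48 libraries each, and Cs exceeded Idh3b in 47 of 48. The other neighbours were not separated beyond their spread: Mdh2 exceeded Ogdh in 40 of 48 libraries, Idh3g exceeded Sucla2 in 30 of 48, and Idh3b exceeded Idh3a in 28 of 48. The order in FPKM depends on the annotated gene lengths, which are the same in every library. By median count Suclg1 (4416) stood above Fh1 (4337.5), and Cs (16060.5) above Mdh2 (15126).

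Subunits of 1 enzyme kept unlike ratios. The size of each FPKM ratio depends on the annotated gene lengths, while its relative spread over libraries does not. The regulatory pair Idh3b to Idh3g had an FPKM ratio of 1.35 ± 0.046 (SD, 48 libraries), ranging from 1.25 to 1.45. The catalytic Idh3a varied more against them, with an Idh3a to Idh3b ratio of 0.977 ± 0.094 and a range of 0.811 to 1.18. For succinyl-CoA ligase, Sucla2 stood at 1.80 ± 0.136 times Suclg1, and Suclg2, the beta subunit of the GTP-forming enzyme, at 0.266 ± 0.023 times Suclg1. The Ogdh to Suclg1 ratio was 4.24 ± 0.418 and ranged from 3.004 to 5.32.

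Within the 24 groups of 2 mice, the SD of the log2 level ran from 0.057 for Suclg1 to 0.091 for Idh3a, with a median of 0.073 over the members. The median was 0.204 over all genes tested and 0.092 over the 386 genes at least as high as the lowest member. Members tended to deviate together. Over the 36 pairs, the correlation of deviations from those group means had a median of 0.52, was above 0 in 33 pairs, and ranged from -0.04 for Ogdh with Sucla2 to 0.86 for Idh3b with Idh3g. These are descriptions, and the members of a pair share their scaling and their muscle sample. The 2 deviations in a group mirror each other, so each of these correlations rests on 24 groups and not on 48 free values. Other gene pairs were not set beside them. Fh1 followed the mean of the other 8 members most closely (Pearson r = 0.80 over 48 libraries), then Idh3g (0.79), Idh3b (0.73) and Suclg1 (0.72). Ogdh did not follow them (r = -0.18).

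Among 9998 genes outside the set, those whose log2 levels were most like the mean of the members over the 48 libraries were mitochondrial. Ndufa10, an accessory subunit of complex I, had r = 0.87. Uqcrfs1, the Rieske protein of complex III, and Ckmt2, the mitochondrial creatine kinase of muscle, both had r = 0.86. Coq9, needed for ubiquinone synthesis, had 0.84, and Cyc1, cytochrome c1, had 0.83. The ATP synthase subunit genes Atp5g3 (0.81), Atp5a1 (0.80) and Atp5g1 (0.76), the oxoglutarate dehydrogenase subunit gene Dlst (0.80) and Uqcrc1 (0.79) completed the nearest 10.

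When each member was scaled to its own mean and SD and averaged, the lowest of the 48 libraries was replicate 2 of WT KPC at CT22, with a score of -1.71 and 0 of 9 members above their mean. The highest were replicates 2 and 1 of WT control at CT26, with scores of 1.42 and 1.28. These WT control CT26 libraries held the highest 2 of 48 values for Idh3b, Idh3g, Suclg1 and Mdh2, whereas Ogdh ranked 28 and 48 of 48 in them, 1 being the highest. The averaged WT comparison and the rhythms are given below also without CT26 or without these libraries.

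The first comparison asked whether KPC tumors shifted the members when the 6 circadian times were averaged. In WT mice the fitted difference between KPC and control mice was below 0 for 8 of the 9 members and above 0 for Ogdh, but all values were within a few percent and none passed the threshold of an adjusted p of 0.05 (edgeR quasi-likelihood test, Benjamini-Hochberg over all genes). Across all genes tested in this comparison, 1.79% were called, 182 higher and 98 lower. Without adjustment, 5 of 9 members and 2370 of 15637 genes had a p under 0.05, and DESeq2 also called 0 of 9 after adjustment. The median log2 difference was -0.06 over the members and 0.00 over all genes. These values moved with single times. Averaged without CT26, Suclg1 differed by -0.039 (log2), Mdh2 by -0.031, Idh3b by -0.025 and Idh3g by -0.013, all over 1.5 times smaller in size, with adjusted p from 0.684 to 0.935. Cs (-0.077), Idh3a (-0.076), Sucla2 (-0.056), Fh1 (-0.039) and Ogdh (0.048) moved by less than that. Without CT22, Mdh2 (-0.029), Idh3g (-0.021), Fh1 (-0.037), Cs (-0.045) and Suclg1 (-0.050) were over 1.5 times smaller, and without CT34 Idh3b (-0.095) and Idh3g (-0.076) were over 1.5 times larger in size.

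Suclg1 had the lowest adjusted p. Its FPKM in WT control ran from 53.2 through a median of 55.3 to 70.3, and in WT KPC from 49.3 through 55.6 to 63.5. The groups overlapped and their medians lay close together, while the highest control libraries lay above every KPC library. The fitted difference was -0.08 (log2, SE 0.028), or -5.18% with a 95% interval of -8.90 to -1.29%, and its adjusted p was 0.164. Cs, at 155.8 to 177.9 FPKM in WT control and 142.3 to 168.1 FPKM in WT KPC, differed by -0.07 (log2, SE 0.028, adjusted p = 0.223). Sucla2 differed by -0.08 (SE 0.034, adjusted p = 0.272) and Idh3a by -0.08 (SE 0.038, adjusted p = 0.295). The values for Mdh2, Fh1, Idh3b and Idh3g were between -0.06 and -0.04 with adjusted p from 0.372 to 0.626.

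Ogdh had the opposite sign. Its FPKM was 211.2 at the lowest, 234.1 in the median and 248.3 at the highest in WT control, and 223.2, 240.4 and 264.0 in WT KPC. The ranges overlapped over most of their length. Its fitted difference was 0.07 (log2, SE 0.030), or 4.67% with a 95% interval of 0.335 to 9.18%, and its adjusted p was 0.282.

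In FoxP1SkmKO mice the KPC differences ran from -0.05 (log2) for Idh3a to 0.06 for Ogdh, and 0 of 9 were called (0 by DESeq2). An unadjusted p under 0.05 was found for 1 of 9 members and for 1936 of 15637 genes. Across all genes, 0.428% were called there, 21 higher and 46 lower. The value of Idh3a rested on single libraries, being -0.089 without FoxP1SkmKO KPC replicate 2 at CT38, -0.082 without replicate 1 at CT18, -0.029 without replicate 1 at CT38 and -0.026 without replicate 2 at CT18. Ogdh in FoxP1SkmKO mice ran from 222.9 to 263.4 FPKM in control and from 221.2 to 282.9 FPKM in KPC (0.06, SE 0.030, adjusted p = 0.393). It was the member with the most positive value in both genotypes. The KPC difference itself was compared between genotypes in the same model. It ranged from -0.00 (log2) for Ogdh to 0.08 for Sucla2, whose adjusted p was 0.824, and the 95% intervals of the 9 members spanned -0.09 to 0.18. No member was called, nor was any gene (0%; 1020 genes had an unadjusted p under 0.05, and DESeq2 called 0 genes with 839 under that limit). Genotype differences within those intervals were not detectable here.

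**Figure D2:**
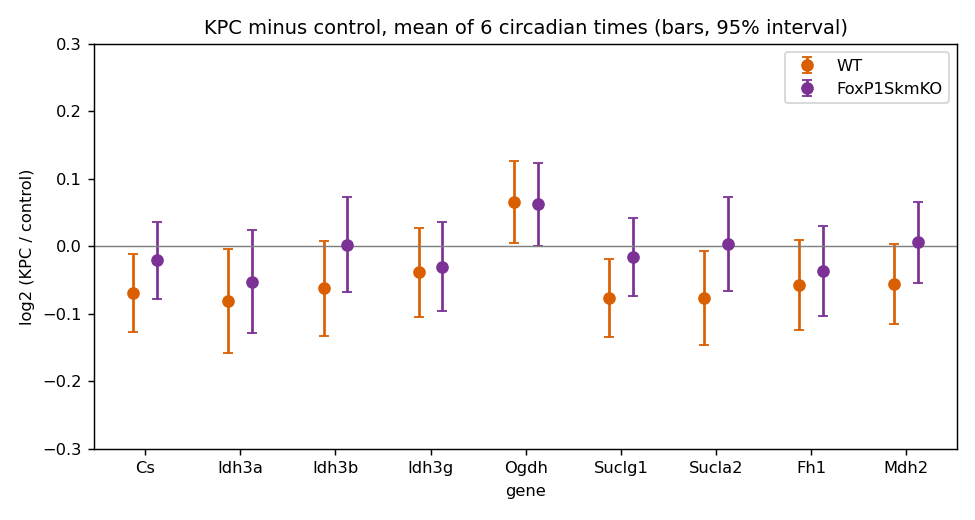
Difference between KPC and control mice (log2, mean of 6 circadian times) for each member in WT and FoxP1SkmKO mice; points are the fitted values and bars their 95% intervals. In WT mice 8 of the 9 points lie below 0 and Ogdh above it; 0 of the 18 values passed an adjusted p of 0.05.

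The genotype comparison asked whether loss of muscle FoxP1 alone altered the members. In control mice, FoxP1SkmKO against WT gave -0.07 (log2) for Sucla2 (adjusted p = 0.292) to 0.04 for Ogdh. Of the 9 members, 0 were called by edgeR (0 by DESeq2), where 3.44% of all genes were called. An unadjusted p under 0.05 was found for 0 of 9 members and for 2682 of 15637 genes. Sucla2 lay at 92.2, 105.8 and 118.6 FPKM in WT control (lowest, median and highest) and at 92.6, 97.1 and 116.2 FPKM in FoxP1SkmKO control, so the groups overlapped almost wholly. In KPC mice the genotype differences were between -0.02 for Idh3g and 0.04 for Cs, again with 0 of 9 called (0 by DESeq2), against 0.32% of all genes. There, 0 of 9 members and 1688 of 15637 genes had an unadjusted p under 0.05.

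Neighbouring genes of the pathway were compared in the same fits. Of the 13 further enzymes, among them aconitase, the succinate dehydrogenase subunits and cytosolic forms, 0 were called in any of these averaged comparisons. Their median KPC difference was -0.06 (log2) in WT mice. Of 14 genes that feed pyruvate into the cycle, Pdhb, the pyruvate dehydrogenase beta subunit, was lower in WT KPC mice (-0.12, SE 0.034, adjusted p = 0.048); it is named as the 1 call of its list, after its value was seen. Pdk4, the kinase that inactivates pyruvate dehydrogenase, was higher in FoxP1SkmKO than in WT control mice (0.76, SE 0.191, adjusted p = 0.018). Of the 15 carrier and shuttle genes and the 15 regulators of mitochondrial gene expression, 0 were called in the averaged comparisons. The 7 nuclear complex I core subunits, taken as a reference of respiratory chain genes, had a median of -0.09 in WT mice, with 0 called.

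Some markers of other cell types moved with the tumor. The calls in WT mice are given first. Of 6 fibroblast markers, 3 were lower in KPC mice, namely Col1a1 (-0.91), Col1a2 (-0.80) and Col3a1 (-0.71), and the summed fibroblast level ran from 29.2 to 94.6 FPKM in WT control and from 18.5 to 80.4 FPKM in WT KPC. Of 3 neutrophil markers tested, S100a8 (2.83) and S100a9 (2.06) were higher, at summed levels of 0.065 to 1.54 FPKM in control and 0.571 to 3.27 FPKM in KPC. The endothelial gene Kdr was lower (-0.27), 1 of 6 endothelial markers, and Actn3, 1 of 10 fast-fibre markers and named after its value was seen, was higher (0.18). In WT mice 0 macrophage, adipocyte, erythroid, Schwann or slow-fibre markers were called. In FoxP1SkmKO mice the fibroblast gene Lum was lower with KPC (-0.79), 1 of 6. The list medians were of like size in both genotypes for 2 cell types. They were -0.67 in FoxP1SkmKO and -0.60 in WT mice for fibroblast markers, and 2.31 (0 called) and 2.06 for neutrophil markers. Between genotypes in control mice, Myl3, of 9 slow-fibre markers, was lower in FoxP1SkmKO mice (-0.50). Tnni2 (-0.15) and Tnnt3 (-0.14), of 10 fast-fibre markers, were lower there too. The part of these shifts in the members' values was not tested.

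The next question was whether the tumor acted at particular times of day. Over 54 member and time pairs in WT mice, 1 passed the threshold: Suclg1 at CT26. Its FPKM was 70.3 and 67.4 in the WT control mice and 58.4 and 56.7 in the WT KPC mice at that time. In FoxP1SkmKO mice at CT26 it was 57.7 and 52.8 in control and 54.7 and 54.7 in KPC. The WT control pair stood above the 6 other libraries of that time, and the WT KPC pair was level with the FoxP1SkmKO mice. The fitted difference in WT mice was -0.26 (log2, SE 0.070, adjusted p = 0.017), whereas in FoxP1SkmKO mice it was -0.02 (SE 0.070, adjusted p = 0.953). Tested directly, the difference between genotypes was 0.24 with an adjusted p of 0.329, so a genotype difference was not shown.

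CT26 was also the time at which most genes were called in WT mice: 7.17% of all genes passed, 726 higher and 395 lower, the lower ones being 2.53%. The 1 member of 9 called lower is to be read against that share. Idh3b at CT26 had 172.5 and 164.0 FPKM in WT control and 142.1 and 142.6 FPKM in WT KPC mice, a difference of -0.25 (log2, SE 0.085, adjusted p = 0.071). Mdh2 had 314.5 and 313.3 FPKM in control and 278.4 and 277.8 FPKM in KPC mice (-0.18, SE 0.072, adjusted p = 0.124). Both pairs were separated without overlap, but neither passed the threshold. Such separation was not particular to them. Idh3a, Idh3g, Sucla2 and Fh1 were separated in the same direction at CT26 and Ogdh in the other, while Cs overlapped. The share of all genes separated in this way was not counted. Idh3b did pass it under other settings, with an adjusted p of 0.032 by DESeq2, 0.044 by DESeq2 on the 4 libraries, 0.048 with upper-quartile scaling and 0.047 with library totals. Sucla2 (-0.18), Idh3g (-0.16), Fh1 (-0.15), Idh3a (-0.11) and Cs (-0.03) were also below 0 at CT26, while Ogdh was above it (0.16, adjusted p = 0.209).

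The call for Suclg1 rested on few mice. It was lost without WT control replicate 1 at CT26 (adjusted p = 0.212), without WT KPC replicate 1 (0.053) or without WT KPC replicate 2 (0.087), and it held without WT control replicate 2 (0.022). With both WT control libraries at CT26 left out, no comparison with KPC can be made at that time.

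At the other times no member was called. At CT22 all 9 WT members were below 0, led by Suclg1 (-0.21), Mdh2 (-0.19) and Cs (-0.19), with adjusted p of 0.913 or more. Of the 9, 3 had an unadjusted p under 0.05, a count not set against all genes here. The WT KPC library with the lowest member score, described above, is 1 of the 2 in that comparison. At the 5 WT times other than CT26, 0.0064% of gene and time pairs were called, at the 6 times in FoxP1SkmKO mice 0.0107% were, and 0 of 54 member and time pairs were called in FoxP1SkmKO mice (2 with an unadjusted p under 0.05; 0 by DESeq2). For the difference between genotypes by time, 0.0597% of gene and time pairs and 0 of 54 member and time pairs were called (3 with an unadjusted p under 0.05). The unadjusted counts of member and time pairs were likewise not set against all genes.

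**Figure D3:**
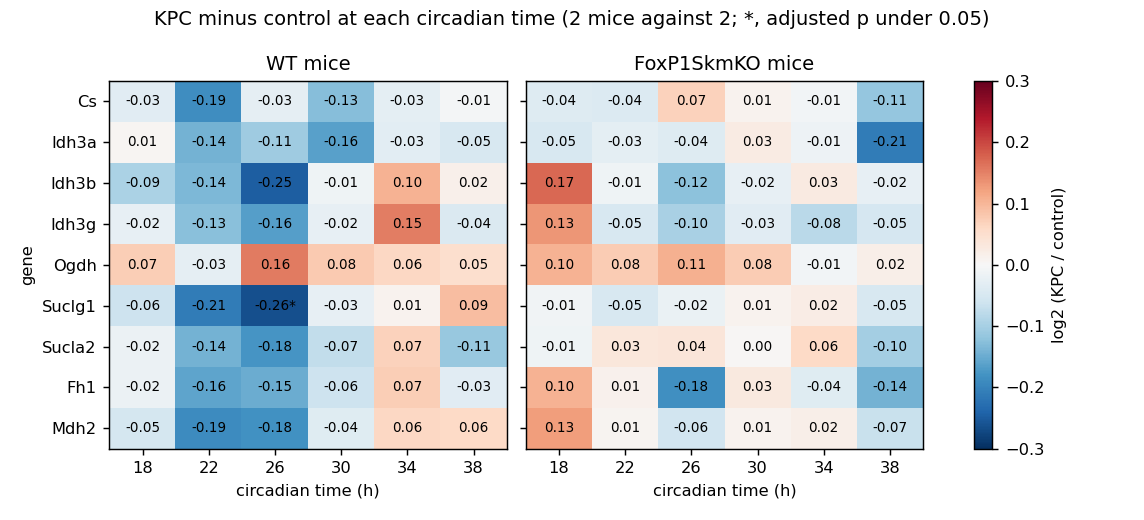
Difference between KPC and control mice (log2) for each member at each circadian time, in WT and in FoxP1SkmKO mice, as a grid of fitted values with the called pair marked. Suclg1 in WT mice at CT26 (-0.26) is the 1 marked cell, and the WT columns for CT22 and CT26 are below 0 for 9 and 8 of the 9 members.

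Whether the KPC difference depended on time was tested over all 6 times at once. In WT mice 0.883% of genes passed, and Suclg1 had the lowest adjusted p of the members at 0.210. DESeq2 gave Suclg1 an adjusted p of 0.026. With edgeR, 1 of 9 members and 1912 of 15637 genes had an unadjusted p under 0.05. In FoxP1SkmKO mice 0% of genes passed by edgeR (1526 with an unadjusted p under 0.05), DESeq2 called 46, and no member was among the calls of either tool.

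At CT26 in WT mice, other genes around the cycle were called, chosen here because they passed at that time. Mdh1, the cytosolic malate dehydrogenase (-0.33), and Sdhc, a membrane anchor of succinate dehydrogenase (-0.32), were lower, 2 of the list of 13 further enzymes. Among the 14 pyruvate genes, Mpc2, a subunit of the mitochondrial pyruvate carrier (-0.39), and Pdhb (-0.32) were lower and Pdpr, a regulator of pyruvate dehydrogenase phosphatase (1.27), was higher. The oxoglutarate carrier gene Slc25a11 was lower (-0.32), 1 of 15 carriers, and Ppara, the fatty acid receptor, was higher (1.05), 1 of 15 regulators. Of the complex I core subunits, Ndufv2 (-0.40), Ndufs7 (-0.38), Ndufs8 (-0.37) and Ndufs3 (-0.35) were lower, with a list median of -0.35 against -0.16 for the members. Of 10 fast-fibre markers, Tnni2 (-0.41) and Pvalb (-0.40) were lower and Myh4 (0.36) higher at CT26; their part in the members' values was not tested. The 5 erythroid markers had differences of -1.001 to -0.42 at CT26 in WT mice (median -0.75), with 0 called, and their summed level was 330.2 and 246 FPKM in the WT control, 161 and 177 FPKM in the WT KPC, 207 and 235 FPKM in the FoxP1SkmKO control and 204 and 153 FPKM in the FoxP1SkmKO KPC libraries. The first of these WT control libraries had the highest erythroid sum of the 48. The part of this in the values of Suclg1 and the other members was not tested.

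The final question was whether the members cycled over the day. A sinusoid of 24 h was fitted to the FPKM of each of the 4 genotype and condition groups, and a group counted as rhythmic at an unadjusted p under 0.01, the limit used in the study. Of the 36 member and group pairs 1 passed: Mdh2 in WT control, with an amplitude of 33.6 FPKM around a level of 266 (12.6%), a peak at CT23.8 and p = 0.0041 (F test, n = 12 libraries, adjusted p = 0.144 over all genes). At this limit 4.92% of genes were called in WT control, 4.22% in WT KPC, 4.07% in FoxP1SkmKO control and 2.63% in FoxP1SkmKO KPC mice.

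This call was not stable. It was lost without any 1 of 5 of the 12 libraries, namely WT control replicate 2 at CT22, either replicate at CT26 or either replicate at CT34 (p from 0.011 to 0.014, n = 11). Without both CT26 libraries the amplitude was 23.5 FPKM, the peak CT22.7 and p = 0.017 (n = 10), and 0 of 36 pairs passed. With edgeR on the counts 3 pairs passed at the same limit: Mdh2 and Suclg1 in WT control and Sucla2 in WT KPC.

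Mdh2 in WT control ran from 227.5 and 237.2 FPKM at CT34 to 314.5 and 313.3 FPKM at CT26. In FoxP1SkmKO control its highest pair, 293.5 and 283.0 FPKM, was also at CT26, and its lowest library, at 236.0 FPKM, was at CT30. In WT KPC it moved less, between 234.3 FPKM at CT30 and 278.4 FPKM at CT26, and in FoxP1SkmKO KPC between 228.3 FPKM at CT38 and 285.3 FPKM at CT26. The highest library fell at CT26 in all 4 groups. The fitted peaks lay between CT22.6 and CT23.9, with p = 0.013 (n = 12 for each group) in FoxP1SkmKO control, 0.028 in FoxP1SkmKO KPC and 0.548 in WT KPC, where the amplitude was 7.97 FPKM.

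Sucla2 ran the other way. Peaks are given within the first cycle, so that a peak near CT10 falls near CT34 of the sampled window. Its fitted peaks lay between CT9.06 and CT11.4, with p = 0.015 (n = 12 for each group) in FoxP1SkmKO control (amplitude 7.75 FPKM), 0.015 in WT KPC (8.71 FPKM), 0.10 in FoxP1SkmKO KPC and 0.369 in WT control. Its levels at CT18 were 95.8 and 92.2 FPKM in WT control, 100.7 and 85.8 in WT KPC, 95.1 and 93.3 in FoxP1SkmKO control and 97.0 and 88.9 in FoxP1SkmKO KPC. At CT34 they were 110.0 and 102.9, 109.7 and 111.9, 108.8 and 104.6, and 106.8 and 115.2 FPKM in the same order of groups. Every CT34 library was above every CT18 library. The share of all genes separated in this way was not counted.

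The rhythm was also compared between KPC and control mice within a genotype. In WT mice (n = 24 libraries) Suclg1 (p = 0.048, adjusted p = 0.752) and Mdh2 (p = 0.063) had the lowest p of the members. No member passed an adjusted p of 0.05 in either genotype, nor did any gene in WT (0%) or FoxP1SkmKO mice (0%); edgeR on the counts called 0 and 8 genes. A loss of the Mdh2 rhythm in tumor-bearing mice was therefore not shown, although the limit was passed only in WT control.

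**Figure D4:**
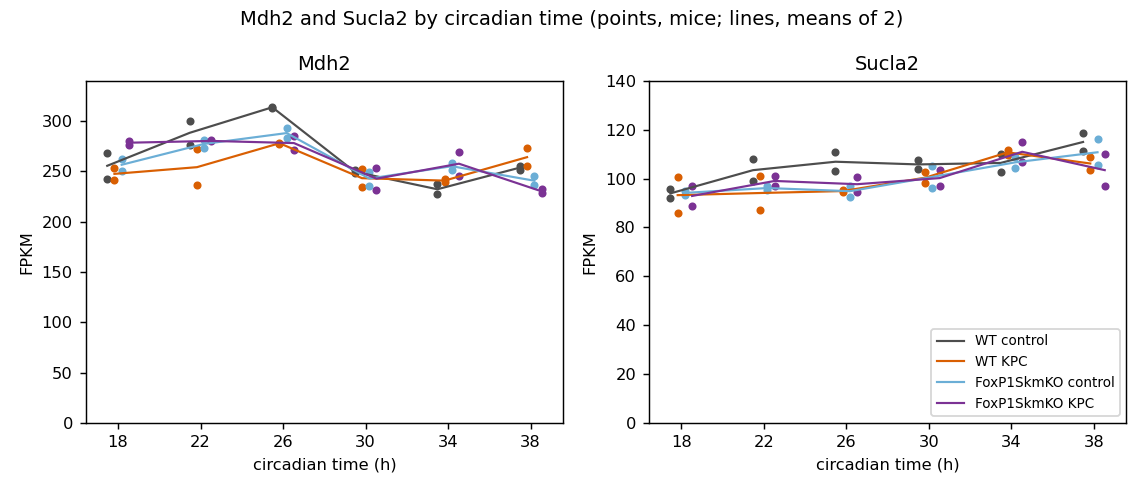
FPKM of Mdh2 and Sucla2 by circadian time (hours) in the 4 genotype and condition groups; points are single libraries, 2 at each time, and lines join the means. The highest Mdh2 library is at CT26 in each group, and in each group both Sucla2 libraries at CT34 lie above both at CT18.

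Because the same times recurred across groups, 1 sinusoid shared by the 48 libraries was fitted to the counts with edgeR, with a separate level for each genotype and condition. This fit was chosen after the separate fits were seen. It called Mdh2 (amplitude 0.11 on the log2 scale, peak CT23.6, adjusted p = 6.16e-05) and Sucla2 (amplitude 0.10, peak CT10.1, adjusted p = 0.000277). The peaks were 10.5 h apart, taken the shorter way round the 24 h cycle. This gap moved with single times. Without CT30 the peaks were CT1.2 for Mdh2 and CT9.3 for Sucla2, and without CT26 they were CT22.0 and CT10.6. The fit to all 48 libraries did not call the other 7 members, whose adjusted p ran from 0.123 to 0.675. The share of all genes called was 34.9%, so 2 of 9 members is not more than the background. A drift over the hours in darkness could also be called by this fit.

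In means over 8 libraries per time, Mdh2 was 260, 275, 290, 245, 247 and 247 FPKM from CT18 to CT38, and Sucla2 was 93.6, 98.2, 98.6, 102, 109 and 109 FPKM. In these means Mdh2 stood high over the first 3 times and Sucla2 over the last 2. The Sucla2 means did not fall from any time to the next, so they show no decline after its fitted peak. Single groups departed from this. In WT KPC mice Mdh2 averaged 264 FPKM at CT38, against 248 at CT18 and 254 at CT22. In WT control mice Sucla2 averaged 107 FPKM at CT26 and 106 at CT34. The FPKM ratio of Mdh2 to Sucla2 was 2.94 ± 0.125 at CT26 (SD, 8 libraries; range 2.69 to 3.06) and 2.27 ± 0.119 at CT34 (range 2.07 to 2.41), without overlap. Over the 48 libraries the correlation of the 2 genes was -0.06, against 0.53 for deviations within the groups at each time.

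The shared rhythm did not rest on the WT control CT26 libraries: without them Mdh2 had an adjusted p of 0.000229 and Sucla2 of 0.000135. In the FoxP1SkmKO mice alone both passed (0.00933 and 0.029), and in the WT mice alone Mdh2 passed (0.032) and Sucla2 did not (0.076). Ogdh, at 256 FPKM at CT18 and between 232 and 244 FPKM at the other times, passed when CT22 (adjusted p = 0.023) or CT38 (0.040) was left out.

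**Figure D5:**
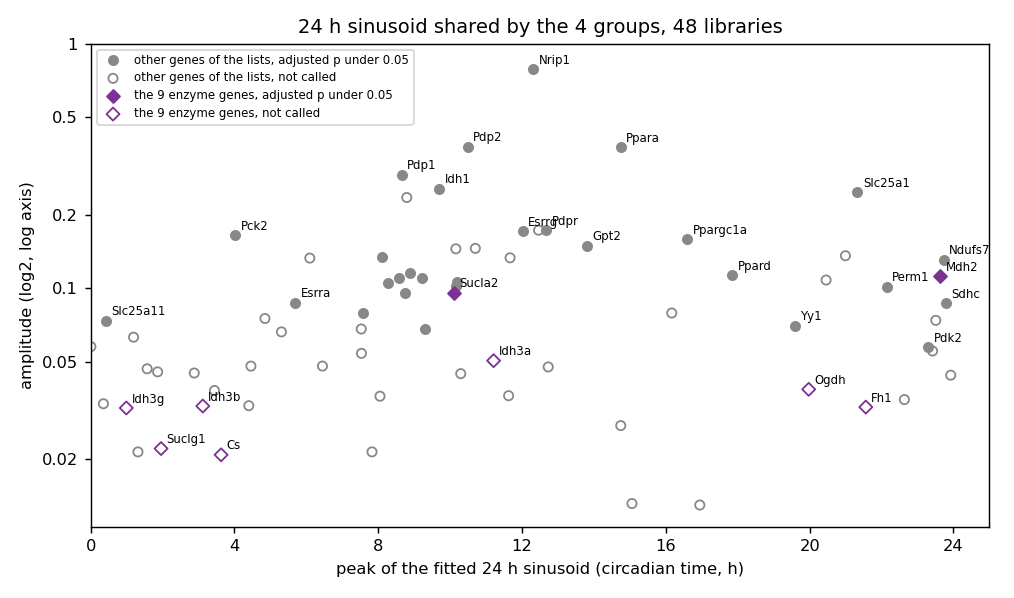
Peak time (CT, hours) against amplitude (log2) of the sinusoid shared by 48 libraries, for the members and for genes of the comparison lists; filled points passed an adjusted p of 0.05. Mdh2 (CT23.6) and Sucla2 (CT10.1) are the 2 members that passed.

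The comparison lists had their own calls in the shared fit. Of the list of 13 further enzymes 4 were called. Idh1, the cytosolic isocitrate dehydrogenase (CT9.7), Dld (CT10.2) and Sdha (CT9.2) had peaks near that of Sucla2, and Sdhc (CT23.8) near that of Mdh2. Of the 14 pyruvate genes 9 were called, and the pyruvate dehydrogenase subunits Pdha1 (CT10.2), Dlat (CT9.3) and Pdhb (CT7.6) peaked within the same part of the day as Sucla2. Of the kinase genes of this list, Pdk1 (CT8.9) was called on that side too and Pdk2 (CT23.3) near the peak of Mdh2. Of 15 regulators 10 were called, the largest amplitude being that of Nrip1, a co-repressor of oxidative genes (0.79, CT12.3). Of 15 carriers 5 and of 7 complex I core subunits 1, Ndufs7 (CT23.7), were called. Of the marker lists, all 6 macrophage, 5 of 6 fibroblast and 5 of 6 endothelial markers were called as well, against 2 of 10 fast-fibre markers; their part in the members' rhythm was not tested.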

How the data were processed

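RNA-seq libraries of tibialis anterior muscle (48 libraries, 24 groups of 2 mice) were analysed from the tables deposited by the authors. The deposited counts are whole fragments per gene, not normalized, and the FPKM values were scaled by the authors to gene length and library size. Reads were aligned to mm39; the study's methods name STAR and HTSeq, whereas the submitters' processing notes name HISAT2 2.0.5, so the aligner is uncertain. Count tables listed no gene with under 2 reads over the 4 libraries of a time and genotype, and 28541 single reads were recovered from FPKM. Columns with the authors' group means, fold changes, p-values and adjusted p-values were not used, nor were 48 columns of counts normalized by the authors. Promoter windows came from RefSeq (GRCm38.p6).

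Counts were fitted with edgeR 4.0.16 (R 4.3.3) as 24 groups with TMM scaling and filterByExpr, which left 15637 genes; contrasts were tested by quasi-likelihood with Benjamini-Hochberg adjustment and a threshold of 0.05. The 24 h sinusoid was tested by an F test on FPKM (scipy 1.17.1, Python 3.11.15); the study used the R packages LR_rhythmicity and LR_diff, which were not run here. DESeq2 1.42.0, other scalings, no filter, a replicate block, removal of a gene length trend and leaving out libraries or times were alternatives. Scripts were tested on simulated data. Mice were treated as unpaired. Correlations of deviations between same-numbered control and KPC mice of a genotype and time were -0.101 to 0.085. This check showed no shared signal but cannot exclude pairing. Replicate pairs differed by more than sampling noise, so none was a repeated deposit. In the fits of 24 groups, p-values set differences against the spread between mice of a group. In the sinusoid fits, the error also holds departures of the times from a sinusoid. In the shared fit it further holds differences between groups in their time course.

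All 9 members are named; of the comparison lists, up to 6 called genes with the largest changes per averaged comparison, the 10 genes most like the members, and others where said. The members and lists were chosen with earlier results of these data known. The shared sinusoid and the sinusoid fits without the WT control CT26 libraries, by genotype or without each time were added after seeing the data. List genes at CT26 and in the shared sinusoid were named after their values were seen. A result for 1 gene of the comparison lists is not reported here.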

Additional observations from a re-analysis of the deposited data

How the results depend on the processing

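No averaged comparison called a member in any alternative run, and the lowest adjusted p among them was 0.0612 (KPC in WT mice). Signs were less stable: 0 of 9 members changed sign in any alternative for KPC in WT mice, but 3 did for KPC in FoxP1SkmKO mice, 4 for the genotype difference, 5 for genotype in control and 6 for genotype in KPC mice. Ogdh's genotype difference of -0.0037 (log2) became 0.0055 (averaged without CT26), 0.0098 (without CT34) or 0.0022 (without CT38) and 0.0071 with the length trend removed, and lay between -0.019 and 0.012 with single libraries left out. Idh3g for genotype in KPC mice went from -0.02 to 0.014 without CT38.

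For KPC at each time in WT mice, the 1 call (Suclg1 at CT26) became 2 with upper-quartile scaling, library totals, DESeq2 or DESeq2 on the 4 libraries, the addition being Idh3b, and 0 with no filter on low counts or edgeR on the 4 libraries; leaving out single libraries gave 0 to 1. The time dependence in WT mice went from 0 to 1 call (Suclg1) with DESeq2. The 24 h rhythm went from 1 pair to 2 with the replicate block (Sucla2 in FoxP1SkmKO control added, n = 12, p = 0.0098) and to 3 with edgeR on counts; without both WT control CT26 libraries it was 0, single libraries left out gave 0 to 2, and Mdh2 in WT control was lost without WT control CT22 replicate 2, CT26 replicate 1, CT26 replicate 2, CT34 replicate 1 or CT34 replicate 2 (p up to 0.014, n = 11). The shared rhythm went from 2 calls to 1 in WT mice alone. With the replicate block, Suclg1 at CT26 kept its call (adjusted p = 0.019), and no averaged call changed. For all genes, the time dependence in WT mice gave 138 calls by edgeR and 380 by DESeq2, and WT mice at CT26 gave 1121 calls, 345 with edgeR on the 4 libraries and 596 with DESeq2 on them. The cause of these changes was not tested. With 2 mice per group and time, differences under about the intervals given cannot be resolved, and counting depth was not the limit for these genes.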
